A study of Mus musculus with 6 samples.

Results

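This section describes the genes of MHC class I antigen presentation in iTreg cells with and without miR-31. The 10 genes are the heavy chains H2-Bl, H2-K1, H2-D1 and H2-T23, the light chain B2m, the transporter subunits Tap1 and Tap2, and the immunoproteasome subunits Psmb8, Psmb9 and Psmb10. They were found by the gene name that the array gives each probe, and 17 probes for 9 of the 10 genes were present among 41174 probes for 27376 names. No probe carried the name H2-D1. H2-Bl was selected on its difference between genotypes in these same arrays, so its values are given as a description with no test, whereas the other genes were chosen by pathway. All 17 probes had signals that the extraction software marked as well above background on 3 or more arrays, and all entered the fit.

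The cells were naive CD4+CD25-CD62Lhi T cells without Foxp3gfp signal, sorted from spleens of C57BL/6 mice aged 6 weeks. The 3 cKO mice were miR-31fl/fl/CD4Cre, in which Cre driven from CD4 control elements deletes the floxed miR-31 allele in T cells. The 3 control mice carried the floxed allele without Cre (a genotype taken from the methods, since the labels say only control), so the groups also differ in Cre itself. The allele was made in ES cells of another strain and backcrossed to C57BL/6J, and the labels do not say whether the controls were littermates. Both genotypes received anti-CD3 on the plate (5 μg/ml), soluble anti-CD28 (2 μg/ml), TGF-β1 (5 ng/ml) and IL-2 (40 ng/ml by the labels) for 4 days, and total RNA of each mouse was hybridised to 1 one-colour Agilent array. Levels below are log2 signals relative to the 75th percentile of the same array, and a difference is always the cKO mean minus the control mean on that log2 scale.

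Almost every nucleated cell displays peptides of its own proteins on MHC class I. Cytosolic proteins are cut by the proteasome, the peptides are pumped into the endoplasmic reticulum by TAP, and a heavy chain that has paired with β2-microglobulin is loaded there and carried to the surface, where CD8 T cells and NK cells read it. Interferon-γ exchanges the constitutive catalytic subunits of the proteasome for the immunoproteasome subunits and raises most other genes of the pathway, and in the mouse many of them lie together in the MHC on chromosome 17.

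The cultures read as T cells with Treg genes. All 7 T cell markers and all 8 iTreg markers with a probe entered the fit, and Foxp3, the defining transcription factor of Treg cells, was at 3.23, 3.19 and 2.53 on cKO arrays 1 to 3 and 3.48, 3.48 and 3.81 on control arrays 1 to 3 (difference −0.61, adjusted p = 0.19, limma). Of the iTreg markers 1 was higher (Ctla4, 0.94) and 2 lower (Foxp3 and Gpr83, whose control level was 3.99-fold that of cKO) at an unadjusted p of 0.05, and of the T cell markers 3 were higher and 1 lower. Over all tested probes 11.7% were higher and 11.3% lower at that p. No probe was named for miR-31, so the deletion could not be checked here. cKO array 3 stood farthest from the others, with Pearson correlations across tested probes of 0.948 to 0.979 and a fitted array weight of 0.17. Slide 1 held the 3 cKO arrays and control array 1, and slide 2 held control arrays 2 and 3, so a comparison within a slide rests on 1 control array. In RNA from a whole culture, fewer cells of a type and less RNA per cell cannot be told apart.

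H2-Bl, named as a blastocyst MHC gene and listed by RefSeq (GRCm38.p6) as a transcribed pseudogene, was the only heavy chain among the members with a large difference, and its probes did not move alike. Probe A_51_P247114 read 0.68, −0.36 and 2.18 on cKO arrays 1 to 3 and −2.26, −2.72 and −3.83 on control arrays 1 to 3. All cKO arrays thus lay above all control arrays, by 3.77 between the means, or 13.6-fold. Probe A_52_P560113 read −0.45, −2.14 and 1.49 against −3.47, −3.69 and −4.78, a difference of 3.61 or 12.2-fold, and cleared the background on 3 cKO and 2 control arrays. Its groups did not overlap either, and in both probes cKO array 3 was the highest and control array 3 the lowest. The brightest probe, A_52_P350519, read 2.14, 2.44 and 3.07 in cKO and 2.31, 2.32 and 1.93 in control cells. Its groups overlapped, the difference of the means was 0.37, and it was 0.10 without cKO array 3. Without that array both dimmer probes differed by 2.68 or more, and within slide 1 by 3.09 or more.

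Both dimmer probes share sequence and are not independent readings. They lie on the minus strand of chromosome 17 at 36217089 to 36217148 and 36217119 to 36217178 (mm9), share 30 bases, and are both assigned to an Ensembl transcript, whereas the brightest lies at 36220441 to 36220687, over a gap in its 247 bases of genome, and is assigned to NM_008199, the RefSeq entry of H2-Bl. The shared bases, all in lower case, were as follows.
H2-Bl shared by both probes: gctcaaatctttgagctgagggttgattag
The brightest probe is shown beside the H2-K1 probe A_52_P474242 (chromosome 17, 34136478 to 34136724, minus strand), since 46 of their 59 aligned bases were identical, and capitals mark the bases that differ.
H2-Bl, brightest probe: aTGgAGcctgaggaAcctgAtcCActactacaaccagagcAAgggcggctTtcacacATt
H2-K1: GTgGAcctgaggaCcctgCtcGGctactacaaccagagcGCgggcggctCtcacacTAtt
That H2-K1 probe differed by 0.11 between genotypes and the H2-Bl probe by 0.37. Probe A_52_P560113 in turn aligned with the H2-Q10 probe A_51_P230269 over 47 bases, of which 39 were identical. The last 30 aligned bases of each are printed with capitals where they differ, because both probes were higher in cKO cells.
H2-Bl, chr17:36217132-36217161, minus strand: tgtgaacttGattgCtcaAatcTttgaGct
H2-Q10, chr17:35611395-35611424, plus strand: tgtgaacttTattgTtcaTatcCttgaTct
How much RNA of one class I gene binds the probe of another was not tested.

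**Figure D1:**
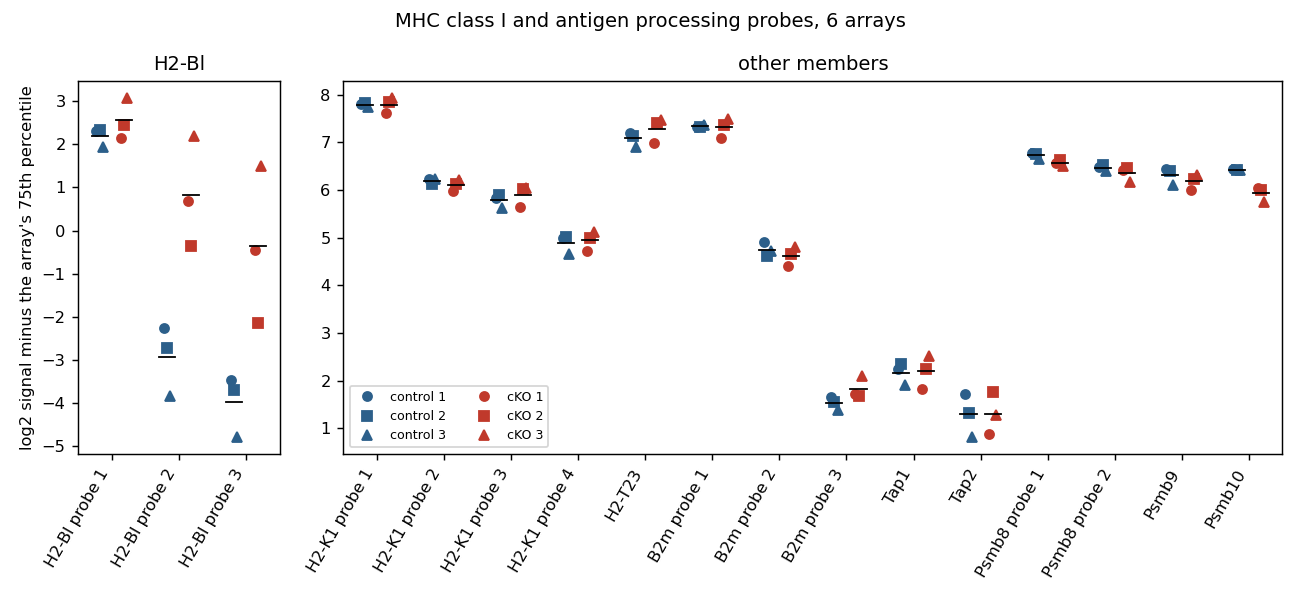
Log2 signal minus the array's 75th percentile (y axis) of each of the 17 probes (x axis, brightest first within a gene) on 3 control arrays (blue) and 3 cKO arrays (red), with group means as black bars. H2-Bl probes 2 and 3, with differences of 3.77 and 3.61, are the only ones in which the groups lie far apart.

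The classical and Qa-1 heavy chains showed no such difference. Among the 14 probes of the other 8 genes, 0 passed an adjusted p of 0.05 in limma (0.130% of all 22281 tested probes did), 0 were higher at an unadjusted p of 0.05 (background 11.7%) and 1 was lower (background 11.3%). Their differences ran from −0.50 to 0.30 with 7 above and 7 below 0, and their median was −0.01 beside −0.04 over all tested probes. The groups did not overlap in 3 of the 14, with cKO above in 1 (background 16.2%) and below in 2 (background 20.4%). H2-K1, the classical heavy chain H-2K, had 4 probes. The brightest, spotted 10 times and placed at 34133055 to 34133114 on chromosome 17 (mm9), read 7.61, 7.85 and 7.93 in cKO and 7.81, 7.83 and 7.74 in control cells, and its difference of 0.00 had a 95% interval of −0.29 to 0.29 (limma). The other 3 differed by −0.09, 0.11 and 0.05, with overlapping groups, and the intervals together reached from −0.35 to 0.48. H2-T23 encodes Qa-1, a nonclassical molecule that presents leader peptides to CD94/NKG2 receptors. It read 6.98, 7.40 and 7.46 in cKO and 7.19, 7.13 and 6.91 in control cells, a difference of 0.20 with an interval of −0.19 to 0.60 (adjusted p = 0.46, limma). The groups overlapped through cKO array 1, which was below 2 of the control arrays, and without that array the unadjusted limma p was 0.043 and the adjusted p 0.16. The H2-T23 probe shared 50 of 59 aligned bases with an H2-Q7 probe, which differed by 0.23. Whether it also reads H2-Q7 was not tested.

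H2-D1, the classical heavy chain H-2D, could be followed only through the accession NM_010380, which RefSeq gives to H2-D1 and which 3 probes named H2-L or H2-Q10 also carry. These probes differed by 0.10, 0.19 and −0.03 between genotypes, and the groups overlapped in each. Their intervals ran from −0.31 to 0.56 in all. Each is also assigned to another class I gene by its name, and whether any of them reads H2-D1 alone was not tested.

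B2m, the light chain shared by all class I molecules, had 3 probes. The brightest read 7.09, 7.37 and 7.49 in cKO and 7.32, 7.33 and 7.37 in control cells, which overlapped (difference −0.02, 95% interval −0.34 to 0.30). The second, spotted 10 times, differed by −0.13 (interval −0.48 to 0.22). The dimmest, assigned to the cDNA AK086184 and placed at 121974599 to 121974658 on chromosome 2 (mm9), upstream of the other 2, read 1.72, 1.68 and 2.09 in cKO and 1.66, 1.55 and 1.39 in control cells. Here all cKO arrays were above all control arrays by a narrow margin, with a difference of 0.30 (standard error 0.15, adjusted p = 0.28, limma) that was 0.17 without cKO array 3.

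Tap1 and Tap2 form the transporter that carries peptides into the endoplasmic reticulum, and neither separated the genotypes. Tap1 read 1.83, 2.24 and 2.51 in cKO and 2.25, 2.34 and 1.91 in control cells (difference 0.03, 95% interval −0.48 to 0.54). Tap2 read 0.89, 1.76 and 1.27 against 1.72, 1.33 and 0.82 (difference 0.02, interval −0.73 to 0.76). The intervals of this pair are the widest of the 8 genes, so a change of up to these bounds was not detectable with 3 arrays a group.

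**Figure D2:**
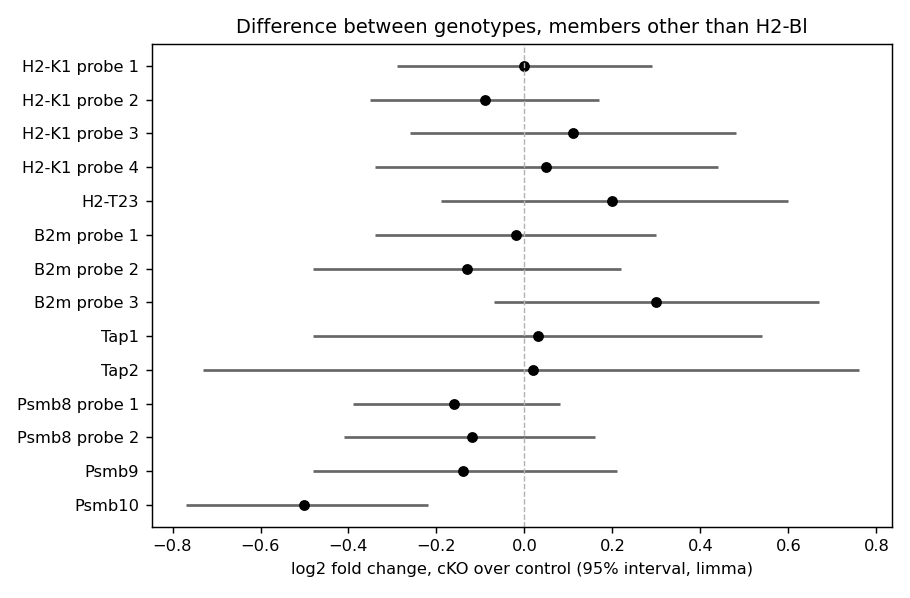
Difference between cKO and control means (points, x axis, log2 fold change) with the 95% interval from limma (lines) for the 14 probes of members other than H2-Bl (y axis). The interval of Psmb10, −0.77 to −0.22, is the only one that leaves out 0.

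Among the immunoproteasome subunits, Psmb10 (MECL-1) was lower in cKO cells. Its probe lies outside the MHC, on the minus strand of chromosome 8 at 108459677 to 108459736 (mm9), and read 6.05, 5.99 and 5.75 in cKO and 6.44, 6.42 and 6.41 in control cells, so that all 3 cKO arrays lay below the narrow range of the controls. The difference was −0.50 (standard error 0.11, unadjusted p = 0.0047, adjusted p = 0.12, limma), a control level 1.41-fold that of cKO, and it did not pass the adjusted threshold. It was −0.41 without cKO array 3 and −0.52 within slide 1. Psmb8 (LMP7) was read by neighbouring probes. The brighter gave 6.57, 6.63 and 6.51 in cKO and 6.77, 6.76 and 6.65 in control cells, without overlap but with a difference of only −0.16 (adjusted p = 0.35, limma), and the second, in which the groups overlapped, differed by −0.12. Psmb9 (LMP2) read 6.00, 6.23 and 6.31 against 6.45, 6.40 and 6.11, which overlapped (difference −0.14, 95% interval −0.48 to 0.21).

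Each of these subunits replaces one constitutive subunit, and the within-array difference of the pair does not depend on the scaling of the array. Psmb10 minus Psmb7 was 1.96, 1.96 and 2.30 in cKO and 2.39, 2.40 and 2.31 in control cells. All cKO values were below all control values, with cKO array 3 just under control array 3, and the mean difference of −0.29 had the smallest p that 3 against 3 arrays allow (exact permutation test, 2-sided, p = 0.10, and 0.30 adjusted over 3 pairs). Psmb8 minus Psmb5 differed by 0.16 (exact p = 0.70) and Psmb9 minus Psmb6 by −0.06 (exact p = 0.90), both with overlapping groups. Psmb5, Psmb6 and Psmb7 themselves differed by −0.31, −0.08 and −0.20, and in each cKO array 3 was the lowest of the 6, as in Psmb10. Without it the 3 pairs differed by −0.41, −0.07 and −0.30 in the order given.

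**Figure D3:**
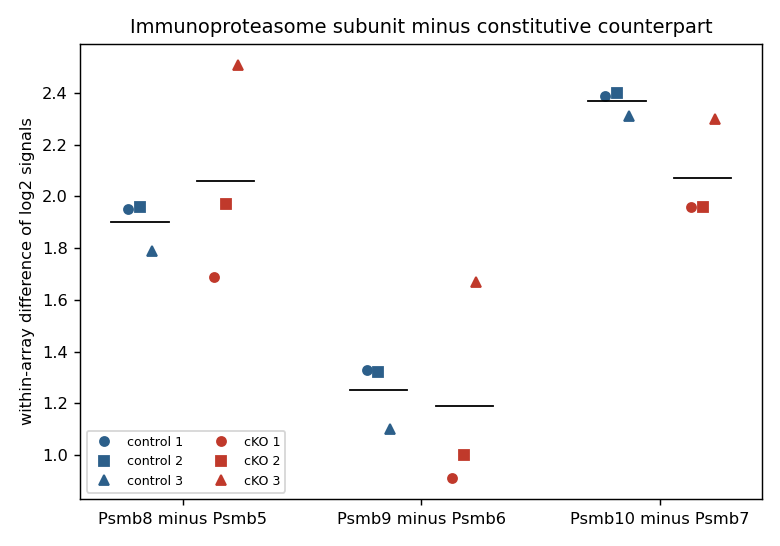
Log2 signal of each immunoproteasome subunit minus that of the constitutive subunit it replaces, computed within each array (y axis), for 3 pairs (x axis), with control arrays in blue, cKO arrays in red and means as black bars. The groups overlap in the first 2 pairs, and in Psmb10 minus Psmb7 the means are 2.07 in cKO and 2.37 in control cells.

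Of 30 other listed class I heavy chains and class I-like genes 16 were tested. At an unadjusted p of 0.05, 3 were higher (background 11.7%) and 0 lower (background 11.3%), with 0 past the adjusted threshold and a median difference of 0.14. H2-Q1 read −2.31, −0.30 and 0.78 in cKO and −2.62, −2.66 and −3.65 in control cells, a difference of 2.37 (standard error 0.78, adjusted p = 0.18, limma) in which cKO array 1 lay just above the controls. H2-Q5, a transcribed pseudogene in RefSeq, read 5.04, 5.53 and 5.41 against 4.62, 4.52 and 4.00, a difference of 0.95 between the means (standard error 0.21, adjusted p = 0.12, limma). The third, Hfe, a class I-like protein of iron uptake, cleared the background on 3 cKO arrays and on 0 control arrays. It entered the fit through the cKO arrays alone, so its values are a description and its call among the 3 is no test. It read −3.24, −2.89 and −2.55 in cKO and −4.96, −4.59 and −5.76 in control cells. The difference of 2.21 was 1.45 with normexp background correction and the 75th percentile and 0.81 with normexp and quantile scaling. A second Hfe probe, which cleared the background on 0 cKO arrays and 1 control array, had overlapping groups. Without cKO array 3 the differences of H2-Q1 and H2-Q5 were 1.67 and 0.90, and the unadjusted p was 0.065 for H2-Q1. With the slide as a term the unadjusted limma p was 0.14 for H2-Q1 and 0.062 for H2-Q5.

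H2-Q10, a secreted class I molecule of the liver, had probes that differed among themselves as those of H2-Bl did, and was singled out after its values were seen. Its 2 brightest probes differed by 0.19 and 0.29 with overlapping groups. The brightest is one of the 3 probes that also carry the accession of H2-D1. The second shared 40 of 52 aligned bases with an H2-K1 probe, and how far either reads H2-Q10 was not tested. The other 3 H2-Q10 probes differed by 0.93, 2.50 and 3.57, without overlap. In the first of these cKO array 1, at 0.43, lay barely above control array 1, at 0.42. Without cKO array 3 they differed by 0.48, 2.22 and 3.30. With the slide as a term their unadjusted limma p was 0.32, 0.031 and 0.063. The probe that differed by 3.57 cleared the background on 3 cKO and 2 control arrays, so that its size depends on a control value that was not well above background. The probe that resembles H2-Bl in sequence, with the difference of 2.50, read −0.08, 1.10 and 1.34 in cKO and −1.27, −1.31 and −2.56 in control cells (adjusted p = 0.10, limma). H2-K2, H2-L, H2-Q2, H2-Q4, H2-Q7, H2-T3, H2-T22, H2-T24, H2-M2 and H2-M3 had overlapping groups on every tested probe.

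**Figure D4:**
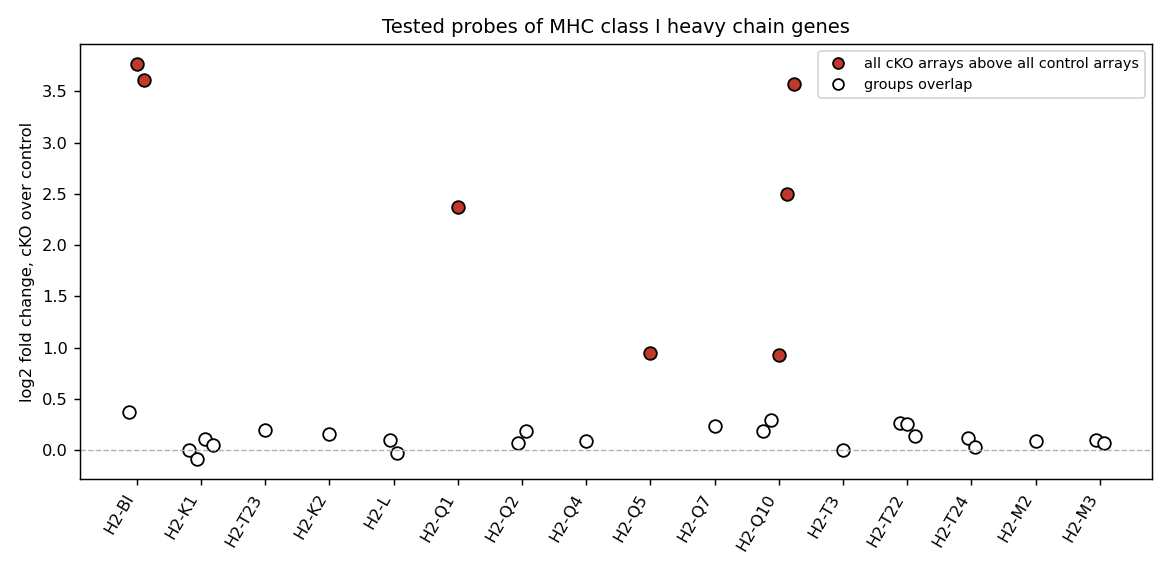
Log2 fold change of cKO over control (y axis) for each tested probe of the MHC-encoded class I heavy chain genes (x axis). Filled points are probes in which all cKO arrays lay above all control arrays, and they occur in H2-Bl, H2-Q1, H2-Q5 and H2-Q10, from 0.93 to 3.77.

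The helpers of peptide loading differed little. Of 11 tested genes of the peptide loading complex and trimming, 1 was higher (background 11.7%) and 0 lower at an unadjusted p of 0.05 (median −0.06). Tapbp, which bridges TAP and the heavy chain, differed by −0.14, the chaperones Calr and Canx by −0.20 and −0.06, and the oxidoreductase Pdia3 by 0.17, all with overlapping groups. Erap1, which trims peptides to their final length, read 2.30, 2.39 and 2.13 in cKO and 2.62, 2.59 and 2.40 in control cells, with cKO just below control throughout (difference −0.26, adjusted p = 0.24, limma). Lnpep, an aminopeptidase of endosomes, was the gene that was higher, at 0.98, 0.99 and 1.17 against 0.47, 0.49 and 0.38 (difference 0.60, standard error 0.10, adjusted p = 0.086). Its 3 probes differed by 0.60 to 1.08, none with overlap. Of 6 cytosolic peptidases Npepps alone was higher at that p, by 0.59 (adjusted p = 0.11). The proteasome activators Psme1 and Psme2 differed by −0.11 each. The assembly chaperones Psmg1, Psmg3 and Psmg4 were the 3 of 10 genes of activation and assembly that were lower at an unadjusted p of 0.05 (background 11.3%). They differed by −0.58, −0.42 and −0.32 (adjusted p from 0.14 to 0.22, limma). With the slide as a term all 3 lost that call (unadjusted limma p from 0.072 to 0.18). Each had all cKO arrays below all control arrays, as did 20.4% of all tested probes. Psmg2 (difference −0.46) and Psme1 of the same list separated in that direction too.

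Ifng, the cytokine that drives this pathway, was higher on all 3 cKO arrays than on any control array. It read 5.47, 5.22 and 5.69 in cKO and 5.11, 4.28 and 2.73 in control cells, a difference of 1.42 (standard error 0.58, adjusted p = 0.22, limma) that was 0.35 within slide 1 and 0.76 without control array 3. The gap between the nearest arrays was small and the control arrays were spread widely. Of 27 tested regulators, 3 were higher (Prdm1, Ifng and Jak2) and 3 lower (Irf7, Socs1 and Nfya) at an unadjusted p of 0.05, near the background of 11.7% and 11.3%, with 0 past the adjusted threshold. With the slide as a term Irf7 was the only one of these 6 to keep that call. Nlrc5, the transactivator of class I genes, differed by −0.16 and Irf1 by −0.15. Irf7, an interferon-induced factor, read −2.43, −1.86 and −2.14 on cKO arrays and −1.46 or above on control arrays (difference −0.91, adjusted p = 0.11, limma). Socs1, a feedback inhibitor of JAK signalling, differed by −0.58 and Jak2 by 0.62. Prdm1, the repressor Blimp-1, differed by 1.74 (adjusted p = 0.12, limma), and by 1.14 within slide 1.

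**Figure D5:**
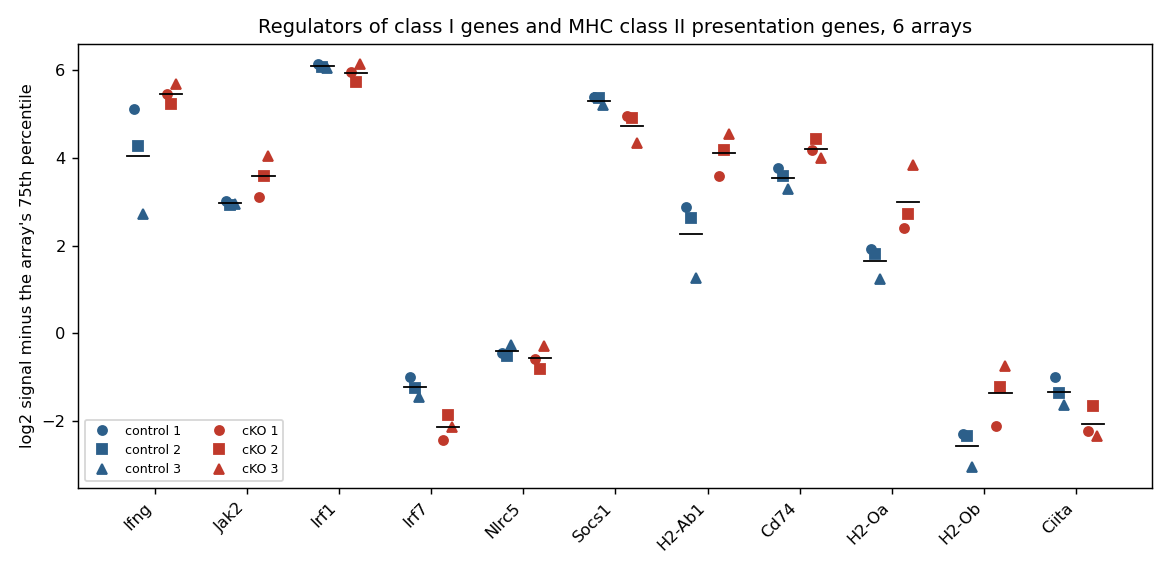
Log2 signal minus the array's 75th percentile (y axis) for 6 regulators of class I genes and 5 MHC class II presentation genes (x axis) on control (blue) and cKO (red) arrays, with means as black bars. Ifng, Jak2, H2-Ab1, Cd74, H2-Oa and H2-Ob have all cKO arrays above all control arrays, and Irf7, Socs1 and Ciita have them below.

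MHC class II genes, which present peptides to CD4 T cells, were read beside those of class I. Of 11 tested genes 4 were higher (background 11.7%) and 1 lower (background 11.3%) at an unadjusted p of 0.05, with a median of 0.66 and 0 past the adjusted threshold. H2-Ab1, a class II β chain, read 3.59, 4.19 and 4.55 in cKO and 2.89, 2.64 and 1.26 in control cells (difference 1.85, standard error 0.47, adjusted p = 0.14, limma), and its 4 probes differed by 1.79 to 2.23. Cd74, the invariant chain, differed by 0.66, and H2-Oa and H2-Ob, which restrain class II loading, by 1.34 and 1.21. Ciita, the class II transactivator, was lower by the unadjusted p, with a difference of −0.74. Within slide 1 these 5 differed by 1.22, 0.43, 1.07, 0.93 and −1.07, and with the slide as a term the 4 higher genes lost the call (unadjusted limma p from 0.10 to 0.16). Without cKO array 3 the unadjusted p was 0.063 for H2-Ob and 0.076 for Ciita, and without control array 3 it was 0.062 for H2-Ob. The remaining tested class II genes had overlapping groups on their brightest tested probe. H2-Aa, a class II α chain, differed by −0.50 there and by −0.37 on its other probe. H2-Eb1 differed by 0.83, H2-DMb1 by 0.66, H2-DMb2 by 0.27, Ctss by 0.08 and H2-DMa by 0.01.

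Markers of other cell types were measured beside them. The background at an unadjusted p of 0.05 was again 11.7% higher and 11.3% lower over all tested probes. Of 9 B cell markers 2 were tested and Ighm was higher (difference 0.64, adjusted p = 0.097, limma), and the summed linear level of the list, relative to the 75th percentile, was 64.9 to 79.2 in cKO and 44.3 to 50.8 in control cells. Nearly all of that sum was Ighm itself, which read 6.00 to 6.30 in cKO and 5.45 to 5.65 in control cells on the log2 scale. Pax5, Blk, Ebf1 and Cd22 were not well above background on any array. Of 12 myeloid and dendritic cell markers with a probe 3 were tested, Cd68 and Zbtb46 were higher by the unadjusted p (Zbtb46 cleared the background on 3 cKO arrays and 1 control array), Csf1r overlapped, and the summed level was 0.396 to 0.643 against 0.361 to 0.501. Lyz1, Itgax, Emr1 and Siglech were not well above background on any array, Itgam was on 2 control arrays, and Lyz2, Cd14, Fcgr1 and Flt3 each were on 1 array. Of 6 erythroid markers 2 were tested and both were higher by the unadjusted p, Hbb-b1 by 2.10 and Epor by 1.53, and the summed level was 1.41 to 2.38 against 0.51 to 0.969. Hba-a1, not tested, was above background on 2 control arrays alone, and Alas2 on 0 arrays. Of 6 epithelial markers with a probe 4 were tested, Epcam (0.62) and Cdh1 (1.02) were higher by the unadjusted p, and the summed level was 1.63 to 2.21 against 1.1 to 1.14, with Krt8 and Krt19 not above background on any array. The part of these markers in the class I and class II values was not tested.

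The probes whose 6-array profile, centred on its own mean, was closest to H2-Bl probe A_51_P247114 were 2 of Tg (thyroglobulin) at a root mean square distance of 0.55 each, Ypel4 at 0.61, Bmp7 at 0.64 and Pls1 at 0.66, against a median of 2.11 over 22245 probes. Their differences between genotypes ran from 2.98 to 3.69, which follows from their choice by this profile. Ypel4 was dim, with a mean level of −4.67 over the 6 arrays. Closest to the mean of Tap1, Tap2, Psmb8, Psmb9 and Psmb10 were Mrps33, Pecam1, Taf1a, Zswim7 and Zfp593 at 0.03 to 0.04, against a median of 0.28. These 5 differed by −0.14 to −0.12, which likewise follows from how they were chosen. Distances are a description over 6 arrays.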

How the data were processed

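The authors labelled total RNA with Cy3, scanned 1 one-colour array for each of 6 mice and extracted the spots with Agilent Feature Extraction (version 9.1 by the submitters' processing notes, 10.7.3.1 per the file headers). The deposited spot intensities are linear, background-subtracted and not normalized between arrays. A deposited table of log2 values was read as quantile-normalized by the authors and served as an alternative. Each array held 43379 spots that were not controls. After 123 to 140 outlier spots an array were dropped, spots of a probe were averaged on the log2 scale and the array's 75th percentile over probes (939.2 to 1095.4 intensity units) was subtracted. No spot was saturated, and 49.3% to 57.7% of spots were well above background. The number of arrays limits the precision.

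The 22281 probes with signals marked as well above background on 3 or more arrays were fitted with limma 3.58.1 (lmFit and eBayes, R 4.3.3) and p-values were adjusted over all of them by Benjamini-Hochberg. The fit was tested on simulated data. Exact permutation tests over arrays used Python 3.11.15. The series text gives 3 individual mice a group, each on its own array, so p-values measure the spread between arrays. That spread joins mouse, culture and hybridisation, and among the controls also the slide. The labels and the methods differ in the IL-2 dose, and the labels' value is printed.

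Groups came from the sample titles. Every probe of a member is named, brightest first. Of the other pathway lists 12 genes are always named and the rest where the unadjusted p was under 0.05 on the brightest tested probe. The remaining tested class II genes are given beside these. One gene of these lists is not reported here. The members and lists were chosen with earlier results of these data known. Replicate numbers did not pair the arrays (correlations of deviations −0.14, 0.01 and −0.19). Similarity of probe sequences was counted without gaps over at least 40 bases between class I probes, as printed in the scanner files. Alternatives were other background corrections and scalings, filters and tests, terms for slide and replicate number, array weights, and each array left out.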

Additional observations from a re-analysis of the deposited data

How the results depend on the processing

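Among the 14 member probes other than those of H2-Bl, 0 passed the adjusted threshold in limma under every alternative but 1. With array weights, which gave cKO array 3 a weight of 0.17, Psmb10 passed and the count was 1 (difference −0.44, adjusted p = 0.031), and the lowest adjusted p of Psmb10 under any other alternative was 0.084. The count lower at an unadjusted p of 0.05 was 0 with normexp and the 75th percentile, 2 with the methods' t-test (Psmb8 and Psmb10) and 0 within slide 1. Leaving out 1 array at a time, the count past the adjusted threshold stayed 0, the count lower stayed 1, and the count higher ranged from 0 to 1, with H2-T23 higher without cKO array 1. The number of the 14 probes whose groups do not overlap was 3 with all arrays (backgrounds 16.2% with cKO above and 20.4% below). It ranged from 3 to 7 with 1 array left out, at 7 without cKO array 1 and 5 without control array 3. Leaving out an array cannot lower this count. The share of all tested probes was not computed with arrays left out, so these counts are not read as a result about the members. The immunoproteasome pairs moved by less than the spread between arrays in every alternative. Over the arrays left out they ranged from −0.07 to 0.34 for Psmb8 minus Psmb5, from −0.30 to 0.08 for Psmb9 minus Psmb6 and from −0.41 to −0.24 for Psmb10 minus Psmb7.

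Normexp with the 75th percentile moved the median of all probes from −0.04 to 0.10 and the brightest H2-K1, B2m and Psmb10 probes to −0.22, −0.24 and −0.73, and the cause was not tested. Near 0 the sign of Tap1, Tap2, H2-T23, the brightest B2m probe and 3 H2-K1 probes changed in at least 1 alternative. The 3 H2-Bl probes ranged from 2.78 to 4.37, 2.24 to 4.50 and 0.10 to 0.57 over the alternatives that each entered. Probe A_52_P560113 was absent where all arrays had to be above background. H2-Bl was selected on its rise in these same arrays, so its kept sign is a description and no support. Across all tested probes 29 passed the adjusted threshold, against 0 when the slide was a term, 0 under normexp and the 75th percentile, 54 with the percentile taken over spots, an alternative added after seeing the data, and 1824 with array weights. With the replicate number as a block 0 probes passed and Psmb10 kept −0.50 (adjusted p = 0.28, limma), and this pairing, which the data did not bear out, changed no count among the members. With 3 arrays a group, the precision of each difference is that of its interval.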

Other observations

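Klrd1, which encodes CD94, the partner chain of the NKG2 receptors that read the H2-T23 product, was singled out after its values were seen. It read 3.03, 0.60 and 3.19 on cKO arrays 1 to 3 and 0.90, 0.18 and 0.07 on control arrays 1 to 3, so that cKO array 2 lay among the controls (difference 1.89, unadjusted p = 0.037, adjusted p = 0.20, limma). Of the 5 NK cell markers it was the only one tested. Ncr1 was well above background on 2 cKO and 0 control arrays, with all cKO arrays above all control arrays, Klra8 was on 1 control array with cKO below, and Klrb1c and Klra4 were on 0 arrays. CD8 chains, whose protein binds class I on target cells, were present in these CD4 cultures. Cd8a read 0.57, −0.23 and −0.94 in cKO and 1.07, 0.27 and 0.63 in control cells (difference −0.86, adjusted p = 0.25, limma), and Cd8b1 differed by −0.17, both with overlapping groups.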
